A study of Homo sapiens with 8 samples.

Results

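The 10 genes described here encode transporters of dicarboxylates, organic anions and monocarboxylates, which are possible routes for a small dicarboxylic acid into cells and mitochondria. They were listed by name: SLC13A2, SLC13A3, SLC13A5, SLC25A1, SLC25A10, SLC25A11, SLC22A6, SLC22A8, SLC16A1 and SLC16A3. They were read by 11 of the 31741 probes of a whole-genome oligonucleotide array, 2 of them for SLC16A1 and 1 for each other gene, among 18255 named genes in all. The cells were SH-SY5Y, an established human neuroblastoma line, left untreated as the control or given 10, 50 or 100 μM maleic acid for 24 h. RNA from each of the 4 groups was hybridized to 2 arrays in Cy5, described as technical replicates, so each dose is 1 RNA sample and the spread between arrays is technical. A difference was called beyond array noise where the adjusted p of a limma fit over all probes and all 8 arrays was under 0.05. That fit compares these RNA samples and is no test of the dose.

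Maleic acid is a dicarboxylic acid, charged at the pH of culture medium, and charged acids of this kind cross membranes mainly through carriers. Members of the SLC13 family bring succinate, citrate and related acids into cells together with sodium. Organic anion transporters of the SLC22 family take up many organic acids in exchange for an intracellular dicarboxylate such as 2-oxoglutarate, and are best known from the kidney proximal tubule. SLC16 monocarboxylate transporters move lactate and pyruvate with a proton, while the SLC25 carriers of the inner mitochondrial membrane exchange dicarboxylates and citrate between matrix and cytosol. The arrays measured RNA, not protein or transport, and in bulk RNA fewer cells with a transcript and less of it per cell cannot be told apart.

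Among these transporters, 1 probe was higher at 100 μM than in the control beyond array noise, that of the mitochondrial citrate carrier SLC25A1 at 1.40-fold, and none was lower. This is 9.09% of the 11 probes, beside 8.94% of all probes called higher and 10.4% called lower at this dose. At an unadjusted p under 0.05, 3 of the probes were higher and 0 lower. The share of all probes at this unadjusted threshold is not given here for any dose, so no excess can be read from the unadjusted counts. At 10 μM and at 50 μM, 0 of the 11 probes passed in either direction, and 0 passed at an unadjusted p under 0.05. By adjusted p, 1.72% of all probes were higher and 1.57% lower at 10 μM, and 1.13% and 1.17% at 50 μM. None of the 11 changed by over 2-fold at 100 μM, against 2.88% of all probes higher and 1.05% lower by that much. The median log2 difference from the control over the 11 probes was 0.05 at 10 μM, 0.16 at 50 μM and 0.12 at 100 μM, and that over all probes was -0.03, -0.02 and -0.03. Without scaling between arrays the median over the 11 probes at 100 μM was -0.15, and that over all probes -0.34.

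The 2 arrays of a dose correlated at 0.989 to 0.993 over all probes, and the median deposited intensity ranged from 336 to 524 between arrays. Levels below are log2 of the quantile-normalized intensity, on which a level of 5.64 (an intensity of 50) was taken as background. Of 10 noradrenergic neuroblastoma markers 8 were measured, with all 8 over background, and GATA3 alone passed at 100 μM (-0.42, adjusted p = 0.0367). Of 5 kidney tubule markers, CUBN, SLC5A2 and UMOD lay over background on all 8 arrays. SLC34A1 (a phosphate transporter) was under it on all 8, as was the mean of the 2 probes of LRP2 (the endocytic receptor megalin), of which 1 alone was under it throughout. LRP2 passed as lower at 100 μM (-0.43, adjusted p = 0.0483), but on means under background and with its probes at -0.73 and -0.14. Its value was -0.74 after cyclic loess and 0.16 after median scaling, so no fold is read from it. The other 4 did not pass.

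**Figure D1:**
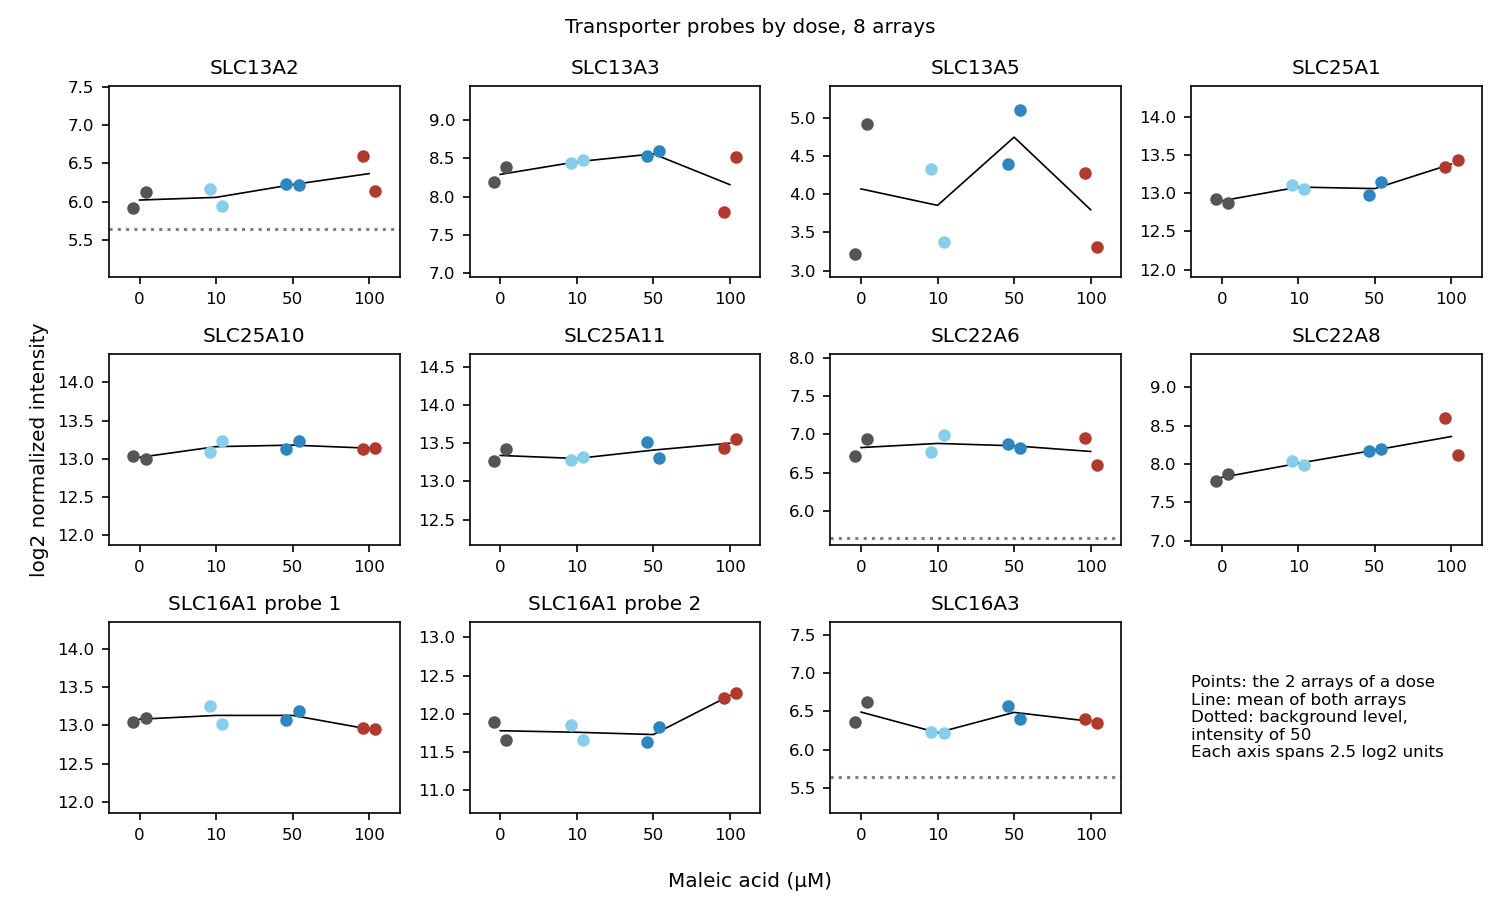
Log2 quantile-normalized intensity (y axis, a scale of its own in each panel) of the 11 transporter probes by maleic acid dose in μM (x axis), each point 1 array and each line the mean of the 2 technical arrays. The SLC25A1 points at 100 μM stand above the other 6, and every SLC13A5 point lies under the background level of 5.64.

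Of the mitochondrial carriers, SLC25A1 exports citrate from the matrix in exchange for malate and so feeds cytosolic acetyl-CoA for lipid synthesis. Its probe read 12.92 and 12.87 in the control, 13.11 and 13.06 at 10 μM, 12.97 and 13.15 at 50 μM, then 13.34 and 13.43 at 100 μM. Both arrays at 100 μM were above all 6 others, and both at each lower dose were above both control arrays. The log2 difference was 0.19 at 10 μM, 0.16 at 50 μM and 0.49 ± 0.10 (SE) at 100 μM, with an adjusted p of 0.0229 at 100 μM. The call was lost without any 1 of the 4 arrays compared, in fits that leave 1 array in a group. The log2 difference itself was 0.51 without the first control array and 0.46 without the second. It was 0.53 without the first 100 μM array and 0.45 without the second.

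The difference at SLC25A1 also depended on scaling. The deposited intensities were 10273 and 9573 in the control, 7570 and 6900 at 10 μM, 8608 and 10320 at 50 μM, then 8238 and 9709 at 100 μM. Without scaling between arrays, the log2 difference at 100 μM was thus -0.15, where the median of all probes was -0.34. It was 0.48 after cyclic loess (adjusted p = 0.0215) and 0.17 after median scaling (adjusted p = 0.283), which is the kind of scaling the study's methods name. With all probes divided by brightness into 5 equal bins, the unscaled values of the brightest bin, which holds SLC25A1, had a median of -0.60 at 100 μM and those of the dimmest one of 0.41. The part of this brightness-related shift in the SLC25A1 value was not tested.

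The promoter of SLC25A1 is shown because it is the gene that passed at 100 μM. The 250 bases before its start site lie on the minus strand at chr22:19178737-19178986 of GRCh38.p14 (RefSeq), with GC boxes (GGGCGG on either strand) in capitals.
SLC25A1 promoter: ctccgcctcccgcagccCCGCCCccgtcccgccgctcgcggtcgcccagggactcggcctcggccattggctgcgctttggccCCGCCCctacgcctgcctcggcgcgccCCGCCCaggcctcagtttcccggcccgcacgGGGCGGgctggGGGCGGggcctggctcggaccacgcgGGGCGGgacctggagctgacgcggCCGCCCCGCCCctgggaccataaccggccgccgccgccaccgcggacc
The window holds 8 GC boxes, of which the last 2 overlap by a base, and is 81.6% G and C, against a median of 58.0% over all promoters. It also has 1 CCAAT box (CCAAT) and 1 match to the core of the antioxidant response element (TGACNNNGC), searched on both strands, and no CACGTG. Over 35116 RefSeq promoters of this length, 42.6% have a GC box, 32.01% a CCAAT box, 10.9% the response element core and 6.35% a CACGTG. The table held promoters for 7 of the 10 genes. That of SLC25A10, whose probe did not pass, has 2 GC boxes and is 82.0% G and C, and that of SLC25A11 has none and is 57.6% G and C. These matches describe letters and not bound factors.

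SLC25A10, the mitochondrial dicarboxylate carrier, exchanges malate or succinate for phosphate. It read 13.04 and 13.00 in the control, 13.09 and 13.24 at 10 μM, 13.13 and 13.23 at 50 μM, then 13.13 and 13.14 at 100 μM. The arrays of all 3 doses were above both control arrays, without order among the doses. The log2 difference at 100 μM was 0.12 ± 0.10 (SE), which did not pass (adjusted p = 0.456). SLC25A11, the oxoglutarate carrier of the malate-aspartate shuttle, read 13.27 and 13.42 in the control, 13.28 and 13.32 at 10 μM, 13.51 and 13.31 at 50 μM, then 13.44 and 13.56 at 100 μM. Its 100 μM arrays were above the control arrays by 0.16 ± 0.12 (SE), within array noise (adjusted p = 0.385), and its other doses overlapped the control. In unscaled values both carriers were lower at 100 μM, by log2 differences of -0.52 and -0.48.

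**Figure D2:**
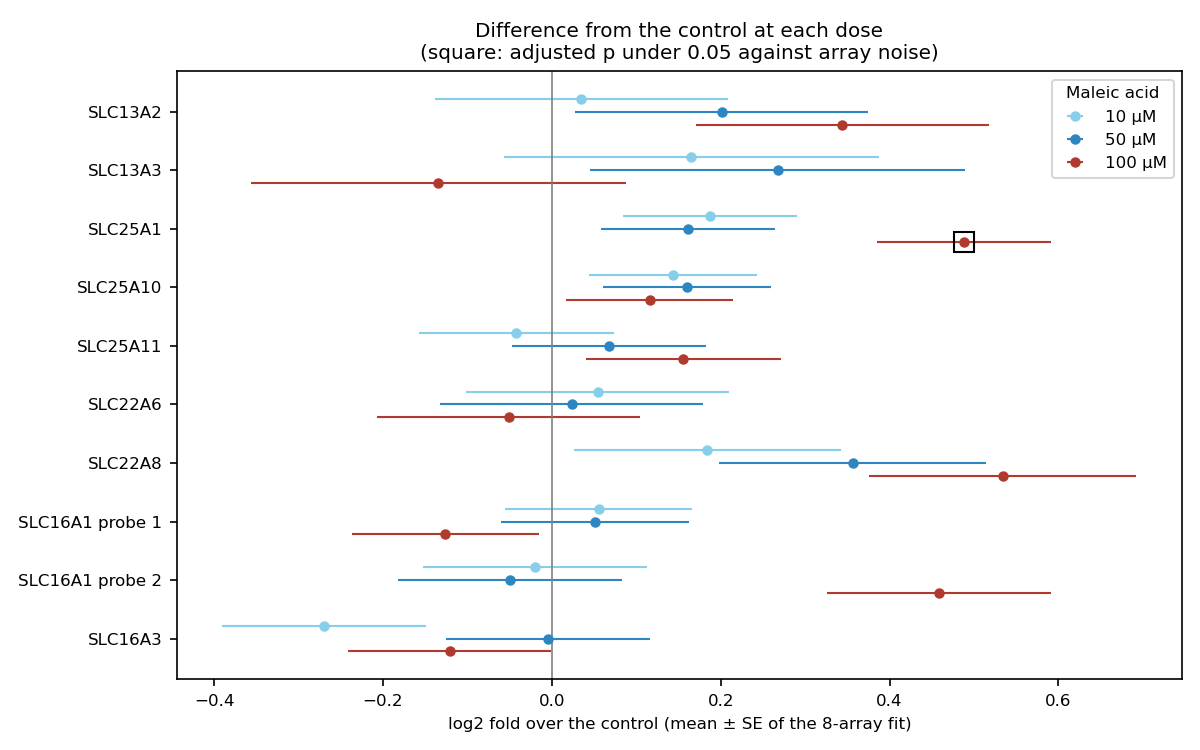
Log2 difference from the control (x axis) of each transporter probe (y axis) at 10, 50 and 100 μM maleic acid, with bars for 1 SE of the limma fit over 8 arrays. SLC25A1 at 100 μM (0.49) is the value with an adjusted p under 0.05, and SLC13A5, under background on every array, is left out.

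The SLC13 proteins are the plasma membrane cotransporters of sodium and dicarboxylates or citrate. SLC13A2, which recovers citrate and succinate at the apical side of kidney and gut epithelia, read 5.92 and 6.12 in the control, 6.17 and 5.95 at 10 μM, 6.23 and 6.21 at 50 μM, then 6.60 and 6.13 at 100 μM. All 8 arrays were little above background, and the 4 means stood in the order of the dose. The log2 difference at 100 μM was 0.34 ± 0.17 (SE, adjusted p = 0.212), and the second 100 μM array was barely above the higher control array. SLC13A3, a high-affinity carrier of succinate and N-acetylaspartate, read 8.19 and 8.39 in the control, 8.44 and 8.47 at 10 μM, 8.52 and 8.59 at 50 μM, then 7.80 and 8.51 at 100 μM. Its 10 and 50 μM arrays were above the control and its 100 μM arrays lay on either side of it, so that the mean difference of -0.13 ± 0.22 (SE) was within array noise (adjusted p = 0.711) and turned to 0.22 without the first 100 μM array. SLC13A5, the sodium-coupled citrate transporter of liver and brain, was under background on all 8 arrays, with deposited intensities of -5 to 52, and no fold is given for it.

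SLC22A6 and SLC22A8 encode the organic anion transporters OAT1 and OAT3, and OAT3 is also found at the choroid plexus. SLC22A8 had the widest range of dose means among the probes over background. It read 7.78 and 7.87 in the control, 8.04 and 7.99 at 10 μM, 8.17 and 8.19 at 50 μM, then 8.60 and 8.12 at 100 μM. Every treated array was above both control arrays and the means stood in the order of the dose, but the second 100 μM array was below both at 50 μM. The log2 difference was 0.18, 0.36 and 0.53 ± 0.16 (SE at 100 μM), a fold of 1.45 at 100 μM, and the adjusted p there was 0.0598. It did not pass, and 1 array set its size: without the first 100 μM array the difference was 0.30 (adjusted p = 0.156), and without the second it was 0.77 (adjusted p = 0.0169).

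The same probe also passed at 100 μM after cyclic loess (0.61, adjusted p = 0.0361) and after median scaling (0.74, adjusted p = 0.0242). It was higher without scaling too (0.42, adjusted p = 0.0984). The probes most like SLC22A8 over the 8 arrays, among 5615 compared, were those of TMC2 (Pearson's r = 0.995), MTUS2 (0.984) and LHFPL3-AS2 (0.984), given as a description. SLC22A6 read 6.72 and 6.93 in the control, 6.77 and 6.998 at 10 μM, 6.88 and 6.83 at 50 μM, then 6.95 and 6.60 at 100 μM. Its arrays overlapped the control at every dose, and its difference at 100 μM was -0.05 ± 0.16 (SE, adjusted p = 0.847).

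SLC16A1 (MCT1) is the widespread lactate and pyruvate transporter, and its 2 probes disagreed. The first read 13.05 and 13.10 in the control, 13.25 and 13.02 at 10 μM, 13.07 and 13.19 at 50 μM, then 12.96 and 12.95 at 100 μM. The second read 11.89 and 11.66 in the control, 11.86 and 11.66 at 10 μM, 11.63 and 11.83 at 50 μM, then 12.21 and 12.27 at 100 μM. At 100 μM both arrays of the first probe were below the control and both arrays of the second above it. The log2 differences were -0.13 ± 0.11 (SE, adjusted p = 0.468) for the first and 0.46 ± 0.13 (SE, adjusted p = 0.0562) for the second, and neither passed. The second passed with a filter on dim probes (adjusted p = 0.0397), an offset of 50 (0.0291) or a floor of 32 (0.0403), and stood at -0.19 without scaling.

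Within each array, the first SLC16A1 probe exceeded the second by 1.16 and 1.44 (log2) in the control, 1.39 and 1.36 at 10 μM and 1.44 and 1.36 at 50 μM, but by 0.75 and 0.69 at 100 μM. Both 100 μM arrays lay outside the range of the other 6. In deposited intensities, with no scaling, this gap was 0.74 and 0.71 at 100 μM and between 1.16 and 1.44 elsewhere. The gap was examined after the values were seen and has no test, and which transcripts each probe reads was not examined here.

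**Figure D3:**
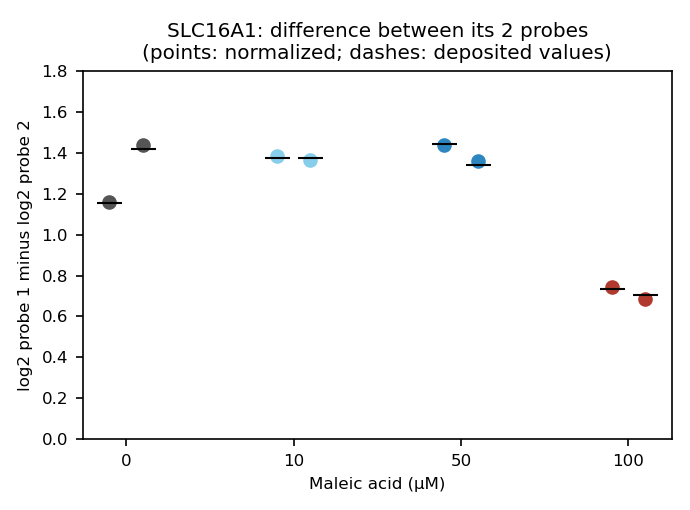
Log2 intensity of the first SLC16A1 probe minus that of the second within each array (y axis) against maleic acid dose in μM (x axis), each point 1 array, from normalized and from deposited intensities. The gap is 1.16 to 1.44 on the 6 arrays up to 50 μM and 0.69 to 0.75 on both arrays at 100 μM.

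SLC16A3 (MCT4), the lactate exporter of glycolytic cells, read 6.36 and 6.62 in the control, 6.23 and 6.21 at 10 μM, 6.56 and 6.41 at 50 μM, then 6.40 and 6.34 at 100 μM. Both 10 μM arrays were below the control arrays, by 0.27 in the mean (adjusted p = 0.214), and the arrays of the other doses overlapped the control. At 100 μM the difference was -0.12 ± 0.12 (SE, adjusted p = 0.522).

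Over the 11 probes, 6 had both 100 μM arrays above both control arrays (SLC13A2, SLC25A1, SLC25A10, SLC25A11, SLC22A8 and the second SLC16A1 probe) and 1 had both below. Of all probes 28.4% lay above in this way and 33.9% below. The 4 means followed the order of the doses upwards for SLC13A2 and SLC22A8 and downwards for none, beside 9.00% and 9.27% of all probes. A slope over the rank of the dose, fitted to the 4 RNA samples, passed adjustment for none of the 11 probes, and 0% of all probes passed in either direction. At an unadjusted p under 0.05 it passed for SLC22A8 alone (0.18 per rank, SE 0.06, adjusted p = 0.223 by limma), beside 9.55% of all probes rising and 7.82% falling.

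**Figure D4:**
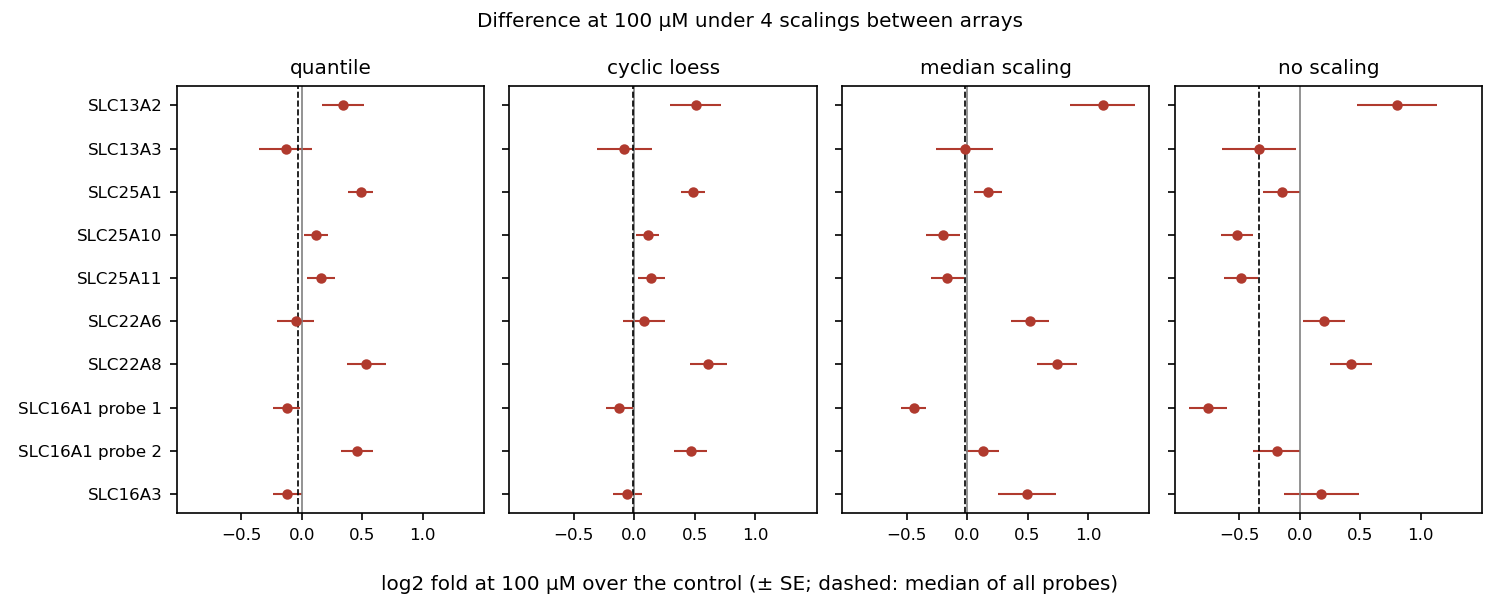
Log2 difference at 100 μM from the control (x axis) of each transporter probe (y axis) under quantile normalization, cyclic loess, median scaling and no scaling, with bars for 1 SE, dashed lines at the median of all probes and SLC13A5 left out. SLC25A1 stands at 0.49, 0.48, 0.17 and -0.15 in this order, beside medians of all probes of -0.03, -0.01, -0.02 and -0.34.

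Under median scaling and without scaling, the median difference of all probes at 100 μM varied with their brightness. The dimmest of the 5 brightness bins, which holds SLC13A2, had medians of 0.73 and 0.41 under these scalings. The brightest bin, which holds SLC25A1, SLC25A10, SLC25A11 and the first SLC16A1 probe, had medians of -0.29 and -0.60. A sign that held or turned under these scalings was therefore not read as a measure of stability. The part of brightness in the value of any 1 probe was not tested. SLC22A8, in the middle bin (medians -0.09 and -0.41), stood at 0.74 and 0.42, and SLC13A3, in the same bin, at -0.02 and -0.34. After cyclic loess, where the medians of the 5 bins lay between -0.05 and 0.06, the sign of the difference was that of quantile normalization for 9 of the 10 probes over background, all but SLC22A6 (0.08 against -0.05).

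The transporters' relatives were read from lists of whole families and pathways, as 1 mean over each gene's probes. At 100 μM, 8.35% of the 18255 genes passed as higher and 11.9% as lower, and the median log2 difference of all genes was -0.03. Of the 5 SLC13 genes, 2 were higher and 0 lower, with a median of 0.34. The count higher was 1 without scaling, 0 without the first control array and 1 without any other array. Both were the sulfate transporters, SLC13A1 (0.74 ± 0.13 (SE), adjusted p = 0.0153) and SLC13A4 (0.63 ± 0.15 (SE), adjusted p = 0.0341, with 1 control array under background). Of 11 SLC22 organic anion transporters, 2 were higher and 0 lower, with a median of 0.43.

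Those 2 were SLC22A7 (OAT2) and SLC22A9 (OAT7), organic anion transporters of the liver. SLC22A7 read 10.62 and 10.65 in the control, 11.36 and 11.22 at 10 μM, 11.31 and 11.57 at 50 μM, then 11.85 and 11.46 at 100 μM. All treated arrays were above the control, by 1.02 ± 0.15 (SE) at 100 μM (adjusted p = 0.0101). SLC22A9 was close to background, with 1 control array under it, and rose by 0.84 ± 0.14 (SE, adjusted p = 0.0116). The count of SLC22 genes higher was 4 after cyclic loess, 6 after median scaling, 1 without scaling and 0 without the first control array. The count of all 31741 probes higher at 100 μM also moved with scaling. It was 2837 after quantile normalization, 3461 after cyclic loess, 5118 after median scaling and 1649 without scaling. Shares of all genes under these other scalings are not given here. Of 4 hepatocyte markers, 0 passed in either direction at 100 μM.

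Among 13 SLC16 genes, 3 were higher and 0 lower, with a median of 0.17. SLC16A7 (MCT2), a high-affinity pyruvate and lactate transporter, read 5.88 and 6.07 in the control, 6.26 and 6.28 at 10 μM, 6.49 and 6.36 at 50 μM, then 6.89 and 6.77 at 100 μM. It was higher by 0.85 ± 0.10 (SE, adjusted p = 0.00589), and the 4 means followed the dose, from control arrays little above background. SLC16A11 (0.80, adjusted p = 0.0329) and SLC16A5 (0.67, adjusted p = 0.00668, from control arrays at 6.31 and 6.29) also passed. Of 9 partners of monocarboxylate transport, which include the chaperone basigin (BSG), lactate dehydrogenases and pyruvate carriers, 1 passed: EMB, the chaperone embigin, fell by 0.78 on the log2 scale (SE 0.17, adjusted p = 0.024). BSG stood at 0.15 and LDHA at -0.05. EMB stood at -0.44 after median scaling and at -0.76 without scaling, and passed under neither.

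Of 15 mitochondrial carriers of carboxylates and amino acids, 2 were higher, SLC25A1 and SLC25A21, and 0 lower, with a median of 0.03. SLC25A21, the carrier of 2-oxoadipate and 2-oxoglutarate, was higher by 0.86 ± 0.14 (SE, adjusted p = 0.0127), as the mean of 3 probes at 0.19, 0.69 and 1.68. Of these probes the last alone passed (adjusted p = 0.479, 0.247 and 0.00179 in this order). The gene did not pass when read by its brightest probe, the one at 0.19. The aspartate-glutamate carriers SLC25A12 (0.03) and SLC25A13 (-0.10) did not pass. Of 10 genes of the malate-aspartate shuttle and of cytosolic citrate use, MDH1, the cytosolic malate dehydrogenase, was lower (-0.68 ± 0.15 (SE), adjusted p = 0.0276). That value rested on a probe under background on all arrays (-1.25), and the other MDH1 probe stood at -0.10. ACLY, which splits the citrate that SLC25A1 exports, stood at -0.01. Of 5 acidic amino acid transporters, 1 was higher, the glutamate transporter SLC1A3 (0.60 ± 0.13 (SE), adjusted p = 0.0234). Its 2 probes stood at 0.92 (adjusted p = 0.00337) and 0.28 (adjusted p = 0.40).

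**Figure D5:**
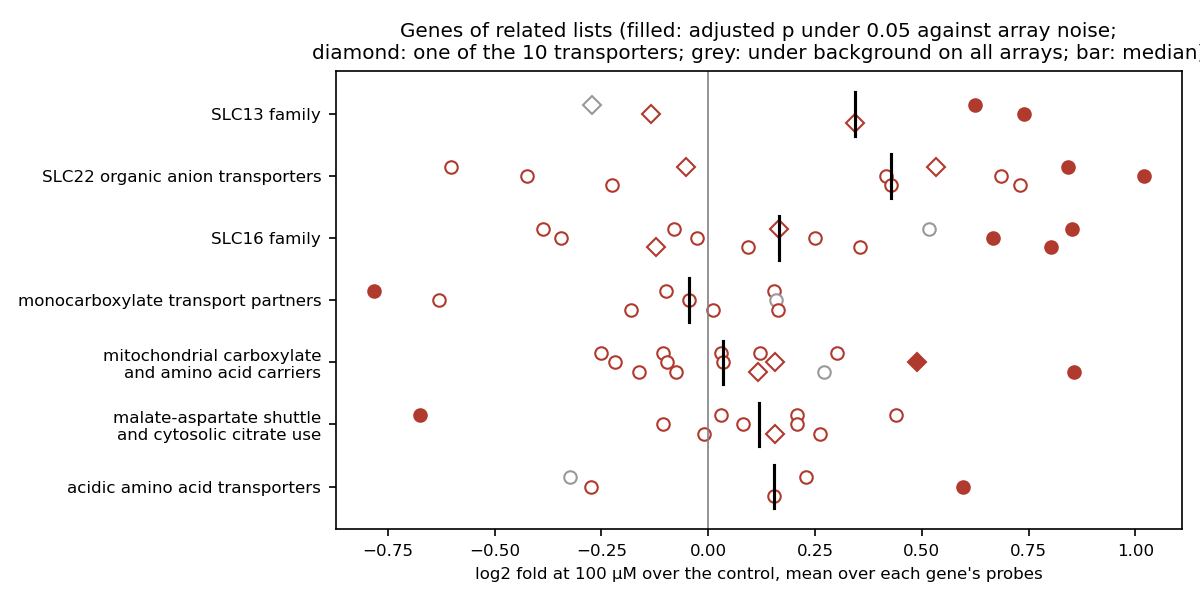
Log2 difference at 100 μM from the control (x axis), as the mean over each gene's probes, for the genes of 7 transporter and pathway lists (y axis), with the 10 transporters as diamonds, a bar at each list's median and filled symbols for an adjusted p under 0.05. The medians run from -0.05 for the partners of monocarboxylate transport to 0.43 for the SLC22 organic anion transporters.

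Over all 45 SLC25 genes, 5 were higher and 5 lower. SLC25A31, an ADP/ATP carrier (0.88), and SLC25A48 (0.74) were among the higher, and SLC25A40 (-0.73) among the lower. The probes of SLC25A48 stood at 0.28 (adjusted p = 0.686) and 1.20 (adjusted p = 0.0321). Over all 352 SLC genes, 44 were higher (12.5%) and 29 lower (8.24%), with a median of 0.03. The 3 named for the largest changes were SLC46A2 (1.88, adjusted p = 0.000673), the vesicular glutamate transporter SLC17A8 (1.60, adjusted p = 0.00186) and SLC17A1, a phosphate and urate transporter of the kidney (1.05, adjusted p = 0.00213). Among the lists drawn in the plot of list genes, SLC22A9 alone passed at 10 μM (adjusted p = 0.0462), and SLC22A7 (0.0489) and SLC22A9 (0.0492) at 50 μM. Of all 352 SLC genes, 6 were higher and 4 lower at 10 μM (1.7% and 1.14%), and 5 and 3 at 50 μM (1.42% and 0.85%). SLC46A2 and SLC17A8 passed as higher at both doses, SLC17A1 at 10 μM and SLC25A31 at 50 μM. Of all probes, 1.72% were higher and 1.57% lower at 10 μM, and 1.13% and 1.17% at 50 μM. Shares of all genes at these doses are not given here. SLC25A1 and the cell type markers GATA3 and LRP2 apart, 17 genes are named here for passing at 100 μM. Their direction was the same without each array and under each scaling, with the limit given above for scaling, but 8 of them no longer passed without the first control array and 8 without the first 100 μM array.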

How the data were processed

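Total RNA of SH-SY5Y cells, untreated or given 10, 50 or 100 μM maleic acid for 24 h, was amplified, labelled with Cy5 and read on 1-colour whole-genome arrays, 2 technical arrays for each dose. The authors deposited 1 intensity per probe and array, on a linear scale and read from the scanned spots with GenePix. Their methods name processing in Rosetta Resolver, removal of spots with a negative flag and median scaling, but array medians in the deposited values range from 336 to 524. The method of background subtraction was not given in the sources used here, and up to 188 values on an array are at or below 0. The number of arrays, not a read depth, limits the precision.

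Intensities were raised to at least 1, transformed to log2 and quantile-normalized across arrays, with limma 3.58.1 in R 4.3.3. Tables and plots were made with Python 3.11.15, pandas 2.3.3 and matplotlib 3.10.9. Probes were named through the platform annotation and RefSeq symbols: 24658 of 31741 had 1 symbol (2177 updated), 1002 several and 6081 none. One mean per dose was fitted to the 8 arrays (lmFit, eBayes, two-sided, Benjamini-Hochberg over all probes of a contrast, threshold 0.05), and the same to the mean of each gene's probes. A dose slope was fitted to the 4 averaged RNA samples, with 2 residual degrees of freedom. The ratio error model named in the methods was not rerun. The code was tested on simulated data.

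The named genes were all 10 transporters, up to 4 others per list with the largest difference at 100 μM among those that passed, and the 3 probes most like the transporter of widest range. The transporters, lists, background level and rules were chosen with earlier results of these data known. Scaling was varied (cyclic loess, the array median, none), and other alternatives were leaving out dim probes, adding 50 before log2, raising values to at least 32, each array left out, a replicate block, other dose scales and a gene's brightest probe.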

Additional observations from a re-analysis of the deposited data

How the results depend on the processing

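The count of transporter probes higher at 100 μM beyond array noise, 1 of 11, was 2 after cyclic loess or median scaling, 0 without scaling, and 3 with dim probes left out, with an offset of 50 or with a floor of 32. It ranged from 0 to 1 when each array was left out, being 0 without either control array or the first 100 μM array. Without the second 100 μM array it was 1, with SLC22A8 in place of SLC25A1. The count of probes lower at 100 μM, 0, was 1 after median scaling and 3 without scaling. At 10 μM, 1 probe was higher after median scaling and 4 were lower without scaling, and at 50 μM 2 were higher after median scaling. Of all 31741 probes, 3316 were higher and 11457 lower in these 10 μM settings, and 5097 higher in that at 50 μM. At 100 μM, 3461 of all probes were higher after cyclic loess, 3349 with the offset and 3281 with the floor. With dim probes left out, 3193 of 27926 were higher. The log2 difference of SLC25A1 at 100 μM was -0.15 without scaling. The dose slope passed adjustment for 0 of the 11 probes under each alternative run. The cause of these changes was not tested.

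With the technical replicate number as a replicate block, SLC25A1 kept its call at 100 μM (adjusted p = 0.0424) and the count higher stayed at 1, while SLC13A4 lost its call and the SLC13 count higher went from 2 to 1. Deviations of same-numbered arrays from their dose means, after quantile normalization, correlated at -0.08 to 0.11 between doses. Whether same-numbered arrays shared a batch cannot be told from these values. Over all probes the block moved the counts at 10 μM from 547 higher and 498 lower to 310 and 93, and at 50 μM from 359 and 370 to 75 and 15. At 100 μM, 2837 probes were higher and 3311 lower, against 5118 and 4794 after median scaling, 1649 and 11367 without scaling, and 751 and 547 without the first control array. Of the gene counts over the lists, 208 stayed within 1.5 times of their value and 80 did not. Each dose is 1 RNA sample, so the spread between cultures is not measured here. The mean log2 gap between arrays was 1.08 for SLC13A5, under background throughout, and 0.09 for SLC25A1. It did not follow the level at every probe: it was 0.12 for the dim SLC16A3 and 0.17 for the brighter second SLC16A1 probe.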
